A study of Mus musculus with 13 samples.

Results

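Cell cycle inhibitors and the p53 axis were followed through 8 genes, Cdkn2a, Cdkn2b, Cdkn2c, Cdkn1a, Cdkn1b, Cdkn1c, Trp53 and Mdm2, taken by symbol from the 32285 genes counted in every library, where all 8 were found. The measurement was droplet single-cell RNA sequencing of 10 colon tumors and 3 pieces of adjacent mucosa from 3 C57BL/6J mice. All carried ApcMin/+, the germline Apc mutation that gives intestinal tumors, together with p16cis/cis, an engineered allele that draws DNA methylation to the p16 promoter, and all ate the supplemented diet, so no genotype or diet was compared. Mouse A (24 weeks) gave mucosa 2 and tumors 5 to 8, mouse B (23 weeks) mucosa 3 and tumors 9 and 10, and mouse C (20 weeks) mucosa 1 and tumors 1 to 4. Tumors of a mouse share that animal, and p-values over libraries therefore rest on 3 animals.

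Cells divide when cyclin-dependent kinases inactivate RB and release E2F. The INK4 proteins, encoded by Cdkn2a, Cdkn2b and Cdkn2c, block the cyclin D kinases CDK4 and CDK6, while the CIP/KIP proteins, encoded by Cdkn1a, Cdkn1b and Cdkn1c, act mainly on the cyclin E and cyclin A kinases. Cdkn2a also encodes ARF from another first exon, which holds back MDM2, the ubiquitin ligase that destroys p53, and p53 in turn drives Cdkn1a and Mdm2.

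The question put to the files was where these inhibitors were expressed, how they differed between tumor and mucosa, and how Cdkn2a stood to the cycling genes inside tumor epithelial cells. After filters, 108495 of 137591 cell barcodes remained, 85953 from tumors and 22542 from mucosa. Libraries held 57221300 to 93157039 UMIs (molecule counts) in tumors and 84883382 to 116133079 UMIs in mucosa, with medians of 3562 to 4989 and 7223 to 9444 UMIs per cell. Pairs of libraries shared 9 to 33 cell barcodes (median 18). The labels call 7 of the 13 libraries Female, but all 13 held the Y-linked Ddx3y at 29.2 to 49.9 CPM (UMIs of a gene scaled to the total UMIs of the sum) and Xist at 0.014 to 0.13 CPM, so sex was not used. Mucosa was released with EDTA and TrypLE and tumors with a tumor dissociation kit, so tissue and dissociation cannot be told apart. A 15-gene dissociation stress list summed to 2510 to 5683 CPM in tumor epithelium and 1351 to 1580 CPM in mucosal epithelium, and its part in the results was not tested. Clusters were named from fixed markers, with the 8 genes kept out of the clustering. The tumor epithelial-like class, 12841 cells of the tumors against 7 of the mucosa, is led by Onecut2 and Cldn4 in its larger cluster and Mt4, Mt3 and Ptn in its smaller cluster.

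Positions are in GRCm38 (mm10). Cdkn2a (ENSMUSG00000044303, minus strand) lies at chr4:89274471-89294653, and Cdkn2b (ENSMUSG00000073802, minus strand) lies beside it at chr4:89306299-89311039. The annotation gives Cdkn2a a p16-type transcript starting at 89282192 and an ARF-type transcript starting at 89294653, with common last exons, and the 3′-end counts cannot separate them. The promoter windows are shown because DNA methylation at p16 is what the engineered allele targets. They are RefSeq reference sequence of GRCm38.p6, 250 bases before to 50 after each RefSeq start, not the p16cis allele, written on the gene's strand with CpG sites in capitals. The first is the p16-type window at chr4:89282143-89282442 and the second the ARF-type window at chr4:89294570-89294869.
Cdkn2a p16-type promoter: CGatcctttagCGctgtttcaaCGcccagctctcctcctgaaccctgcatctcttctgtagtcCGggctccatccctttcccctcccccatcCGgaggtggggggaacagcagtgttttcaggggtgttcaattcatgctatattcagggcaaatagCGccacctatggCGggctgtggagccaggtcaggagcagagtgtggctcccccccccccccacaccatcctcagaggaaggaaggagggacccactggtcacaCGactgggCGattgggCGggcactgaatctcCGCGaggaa
Cdkn2a ARF-type promoter: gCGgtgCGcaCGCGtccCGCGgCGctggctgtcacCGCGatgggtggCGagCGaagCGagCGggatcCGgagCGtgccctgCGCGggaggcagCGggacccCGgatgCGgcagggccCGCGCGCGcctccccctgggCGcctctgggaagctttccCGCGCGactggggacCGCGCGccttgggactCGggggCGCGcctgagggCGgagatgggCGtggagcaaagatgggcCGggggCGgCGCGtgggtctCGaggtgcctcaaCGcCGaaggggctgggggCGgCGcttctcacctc
The p16-type window held 12 CpG sites and 60.3% G or C, and 39.6% of all 32841 promoter windows held at least as many CpG sites. The ARF-type window held 45 CpG sites and 77.0% G or C, a number of sites reached by 1.93% of windows. Cdkn2b had 18, Cdkn1b 30, Trp53 10 and Mdm2 35 CpG sites, and the median window of all genes had 7. Cdkn2c had windows with 8 and 33.

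Cdkn1a (ENSMUSG00000023067, plus strand, chr17:29090976-29100727) is the classical p53 target among the inhibitors. Its first window, at chr17:29090729-29091028, is shown because it holds a p53-type element, in capitals.
Cdkn1a promoter: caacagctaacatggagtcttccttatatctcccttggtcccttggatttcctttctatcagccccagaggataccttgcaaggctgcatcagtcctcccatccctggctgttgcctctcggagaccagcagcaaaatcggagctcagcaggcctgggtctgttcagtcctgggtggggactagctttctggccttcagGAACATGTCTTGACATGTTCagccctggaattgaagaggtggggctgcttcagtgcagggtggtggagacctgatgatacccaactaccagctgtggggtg
The search took the 20-base p53 element without spacer, on both strands, with 1 mismatch allowed. It matched in 29 of 32841 windows (0.0883%), among them this window but none of the other members' windows. The second Cdkn1a window, at chr17:29093519-29093818, held no match and 23 CpG sites, and the first held 2 CpG sites. The remaining loci were Cdkn2c (ENSMUSG00000028551, minus strand, chr4:109660876-109667189), Cdkn1b (ENSMUSG00000003031, plus strand, chr6:134920401-134925513), Cdkn1c (ENSMUSG00000037664, minus strand, chr7:143458339-143461050), Trp53 (ENSMUSG00000059552, plus strand, chr11:69580359-69591873) and Mdm2 (ENSMUSG00000020184, minus strand, chr10:117688875-117710758).

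Cdkn2a, the INK4 gene at the engineered locus, was counted in the epithelium of every tumor and was at or near 0 in the mucosal epithelium. In epithelial cells of the 10 tumors it stood at 87.1, 65.6, 24.3 and 64.5 CPM in tumors 1 to 4, at 29.4, 53.5, 48.1 and 26.9 CPM in tumors 5 to 8, and at 51.4 and 38.4 CPM in tumors 9 and 10. It was at 0, 0.0276 and 0 CPM in mucosa 1, 2 and 3. Every tumor was above every mucosa, and within each mouse all tumors were above its mucosa. The tumor libraries held 13960 Cdkn2a UMIs in their epithelial sums and the mucosa held 2, where the tumor share of UMIs would have given 10353, a ratio of 5176 with a 95% exact interval of 1433 to 42747 that covers counting error only. Without mucosa 2, which carried both UMIs, the ratio was at least 2260 against a floor of 3 counts over the group. The fitted log2 fold change, which depends on the prior count and is no bound, was 11.67 (SE 0.80, edgeR quasi-likelihood, Benjamini-Hochberg adjusted p = 2.15e-07), against a background in which 64.5% of the 15602 genes tested differed, 34.0% higher and 30.5% lower. Of the 8 members, 4 were higher and 2 lower in tumor epithelium, with a median log2 fold change of 0.08 against 0.04 over all genes. Scaling by library size alone moved the median of all genes to 0.32 and the higher share of the calls from 52.8% to 69.7%. Fewer cells of a type and less RNA per cell cannot be told apart in such sums.

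**Figure D1:**
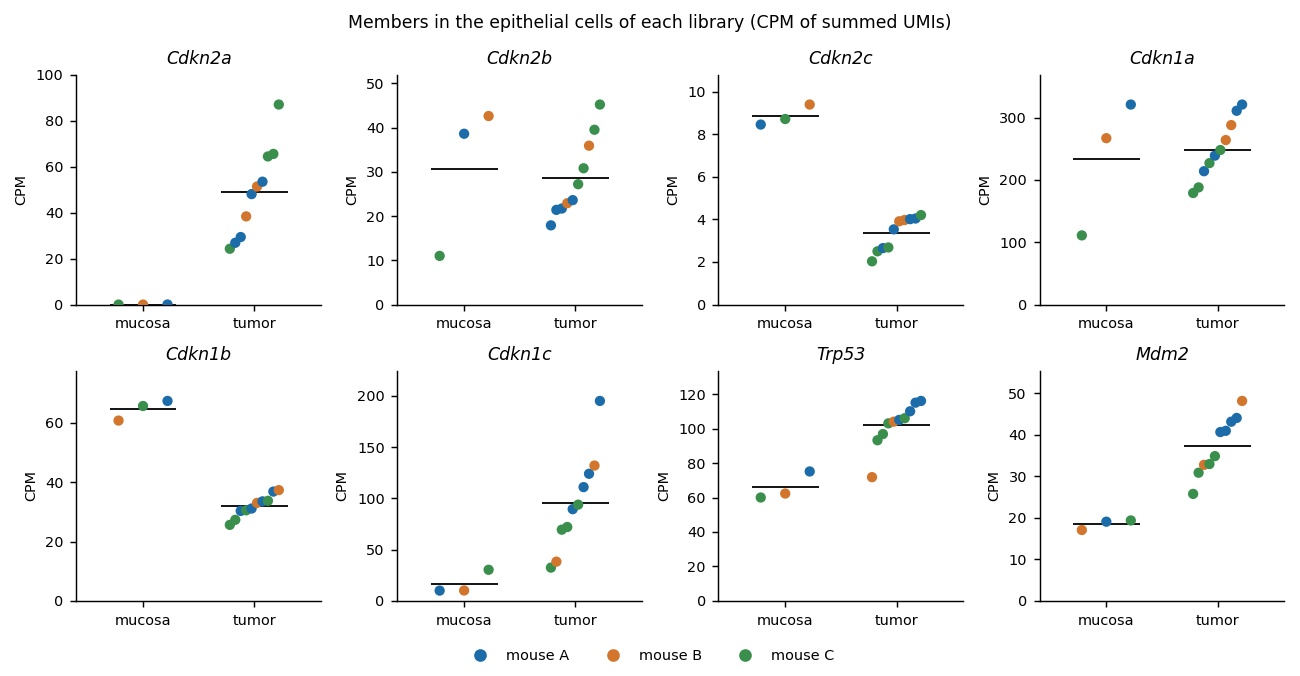
Level of each member (CPM of summed UMIs, linear axis from 0) in the epithelial cells of 3 mucosa samples and 10 tumors, a point per library coloured by mouse, with the group mean as a line. Cdkn2a lay between 24.3 and 87.1 CPM in tumors and at or under 0.0276 CPM in mucosa, Cdkn2c and Cdkn1b lay lower in every tumor than in any mucosa, and Cdkn1a and Cdkn2b overlapped.

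Cdkn2b, the neighbouring p15 gene induced by TGF-beta, did not follow Cdkn2a. It ranged from 17.9 to 45.2 CPM (median 25.4) in tumor epithelium and was at 11, 38.6 and 42.6 CPM in mucosa 1, 2 and 3. The groups overlapped and mucosa 1 was the low one, giving a log2 fold change of -0.37 (SE 0.35, edgeR adjusted p = 0.363). Mucosa 1 also held fewer absorptive cells, 11.8% of its epithelial cells against 34.7% and 33.7% in mucosa 2 and 3, and its part was not tested. Without mucosa 1 the value was -0.78 (edgeR adjusted p = 0.0379), and without mouse C it was -1.05 (edgeR adjusted p = 0.00577).

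Cdkn2c, the p18 inhibitor of CDK4 and CDK6, was lower in every tumor. It ranged from 2.03 to 4.20 CPM (median 3.72) in tumor epithelium and stood at 8.71, 8.45 and 9.39 CPM in mucosa 1, 2 and 3, a log2 fold change of -1.68 (SE 0.19, edgeR adjusted p = 6.51e-06). The groups did not overlap. A mostly mucosal cycling cluster, led by Hist1h1b, Cbr3 and Ube2c, made up 10.2 to 15.4% of mucosal and 0.117 to 3.04% of tumor epithelial cells. Cycling cells of the tumor epithelial-like class lay in the clusters of that class, together with its non-cycling cells, and are not counted in these shares. In the mostly mucosal cluster Cdkn2c was at 21.5 ± 0.516 CPM (SD, n = 3) in mucosa and 18.1 ± 5.61 CPM (SD, n = 3) in tumors with enough cells. The 2111 mucosal cells of that cluster held 0 Cdkn2a UMIs and its 164 tumor cells held 3. By class, Cdkn2c was at 0.931 ± 0.332 CPM in tumor and 4.48 ± 0.769 CPM in mucosal absorptive cells (SD, n = 3). Goblet-like cells were at 2.63 ± 2.21 and 5.05 ± 0.567 CPM. Epithelial clusters outside the named classes, the cycling one included, were at 6.11 ± 0.824 and 11.5 ± 1.58 CPM. Tumor absorptive and goblet-like cells held only 13 and 14 Cdkn2c UMIs. The part of the cycling cluster in the Cdkn2c difference was not tested.

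The CIP/KIP genes went in different directions. Cdkn1a, encoding p21, ranged from 179 to 321 CPM (median 243) in tumor epithelium and was at 111, 321 and 267 CPM in mucosa 1, 2 and 3. The ranges overlapped and the difference did not pass the test (log2 fold change -0.20, SE 0.25, edgeR adjusted p = 0.498). Its sign turned in some alternatives, and without mucosa 1 it was lower in tumors, at -0.53 (edgeR adjusted p = 0.0243). Cdkn1b, encoding p27, ranged from 25.6 to 37.3 CPM (median 32.1) in tumors and was at 65.6, 67.3 and 60.7 CPM in mucosa. All tumors were below all mucosa samples, with a log2 fold change of -1.30 (SE 0.10, edgeR adjusted p = 4.60e-07). Cdkn1c, the imprinted p57 gene, ranged from 32.5 to 195 CPM (median 91.7) in tumors against 30.4, 10.1 and 10.2 CPM in mucosa. The lowest tumor was just above mucosa 1, and the log2 fold change was 2.22 (SE 0.53, edgeR adjusted p = 0.00248). Mucosa 1 held more enteroendocrine-like cells, 5.61% of its epithelium against 2.18% and 2.16%, a class with 650 ± 295 CPM (SD, n = 3) of Cdkn1c. Its leading genes were enteroendocrine (Chgb, Chga, Sct, Neurod1) but also of tuft cells (Dclk1, Sh2d6), so the class is mixed. The part of this class in the Cdkn1c level of mucosa 1 was not tested. Without mouse A the value was 1.58 (edgeR adjusted p = 0.0553).

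Both genes of the p53 core were higher in tumor epithelium. Trp53, the transcription factor itself, ranged from 71.8 to 116 CPM (median 104) in tumors and was at 60.0, 75.1 and 62.3 CPM in mucosa. Only tumor 10, which also had the lowest share of tumor epithelial-like cells in its epithelium (67.3% to 83.3% in the others), fell inside the mucosal range. The log2 fold change was 0.35 (SE 0.11, edgeR adjusted p = 0.0150), and it was lost without mucosa 1 (edgeR adjusted p = 0.0783), without mucosa 3 (0.0688), without mouse C (0.149) or when the tumors of each mouse were summed (0.0763) or doublets kept (0.0619). Of 5 mucosal epithelial clusters outside the named classes, 2 held Trp53 near the level of the tumor cells, at 130 ± 24.1 CPM (SD, n = 3) in the cluster led by Aldh1b1 and Sult1a1 and 124 ± 20.3 CPM (SD, n = 3) in the cycling cluster led by Hist1h1b, against 118 ± 10.6 CPM in tumor epithelial-like and 19.2 to 22.2 CPM in mucosal absorptive cells. The other 3 were lower, among them the cluster led by Retnlb, Agr2 and Muc2 (2628 mucosal cells) at 46.0 ± 7.20 CPM (SD, n = 3). Absorptive cells were 11.8 to 34.7% of mucosal and 2.82 to 15.7% of tumor epithelial cells, and their part in the Trp53 difference was not tested. Mdm2 ranged from 25.8 to 48.2 CPM (median 37.8) in tumors against 19.4, 19.1 and 17.1 CPM in mucosa. All tumors were above all mucosa samples, by 0.73 on the log2 scale (SE 0.15, edgeR adjusted p = 0.000769). Immune marker genes, 7 of 7 detected, summed to 24.0 to 64.3 CPM in tumor and 12.7 to 15.6 CPM in mucosal epithelial sums, and their part was not tested.

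The other genes of the pathways were counted as lists, to be read against 34.0% of all genes higher, 30.5% lower and a median of 0.04. Among 28 p53 targets, 19 were higher and 5 lower in tumor epithelium, with a median log2 fold change of 0.78. Phlda3, an inhibitor of AKT signalling, rose from 2.53 ± 0.550 CPM (SD, n = 3) to 62.9 ± 11.4 CPM (SD, n = 10), and Pmaip1, the proapoptotic NOXA gene, from 3.71 ± 1.32 to 40.2 ± 9.79 CPM (edgeR adjusted p = 1.97e-08 and 1.17e-06). Trp53inp1 also rose (log2 fold change 2.26, edgeR adjusted p = 6.09e-06), while Perp, a desmosomal p53 target, fell by 0.97 on the log2 scale. Of the CDK4/6 and RB list, 1 of 16 was higher and 6 lower (median -0.22), E2f3 rising by 0.67 and E2f8 falling by 1.44 on the log2 scale. Of the CDK2 and CDK1 list, 6 of 14 were lower (median -0.42), among them Cdk1 and Ccna2. The S and G2/M lists had 18 of 40 and 18 of 52 genes lower, and 3 of the latter were higher, with a median of -0.33 in each, the G2/M share lying near that of all genes. Of 8 other cell cycle inhibitors, 3 were higher, Gadd45b by 2.07 on the log2 scale, and 2 lower, Cdkn2d and Cdkn3 (median 0.27). Of 10 tested p53 regulators, Trp53bp1 was higher and Chek2 lower (median 0.01). Regulators of the Cdkn2a locus were higher in 15 of 28 and lower in 1 (median 0.46). Cbx2, a Polycomb reader, and Kdm6b, a demethylase that removes H3K27 methylation, rose by 1.59 and 1.61 on the log2 scale. The stress list was higher in 13 of 15, with a median of 1.92.

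Levels were then set side by side across the named cell classes that had a level in all 3 mice. In tumors, as mean ± SD over 3 mice, Cdkn2a was at 64.1 ± 12.6 CPM in tumor epithelial-like cells, 19.7 ± 8.21 in Paneth-like cells and 11.8 ± 1.08 in T cell-like cells, of which the last 2 did not differ beyond their spread. It fell to 0.417 ± 0.0254 CPM in neutrophil-like and 0.0915 ± 0.158 CPM in B cell-like cells. In mucosa it was highest in T cell-like cells, at 9.16 ± 3.13 CPM. Cdkn2b was highest in absorptive cells, 64.2 ± 16.1 CPM in tumors and 89.3 ± 20.8 CPM in mucosa, followed by goblet-like cells at 30.8 ± 6.29 and 26.3 ± 10.4 CPM. Cdkn2c led in T cell-like cells of tumors and mucosa, at 23.5 ± 2.88 and 21.4 ± 1.67 CPM.

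**Figure D2:**
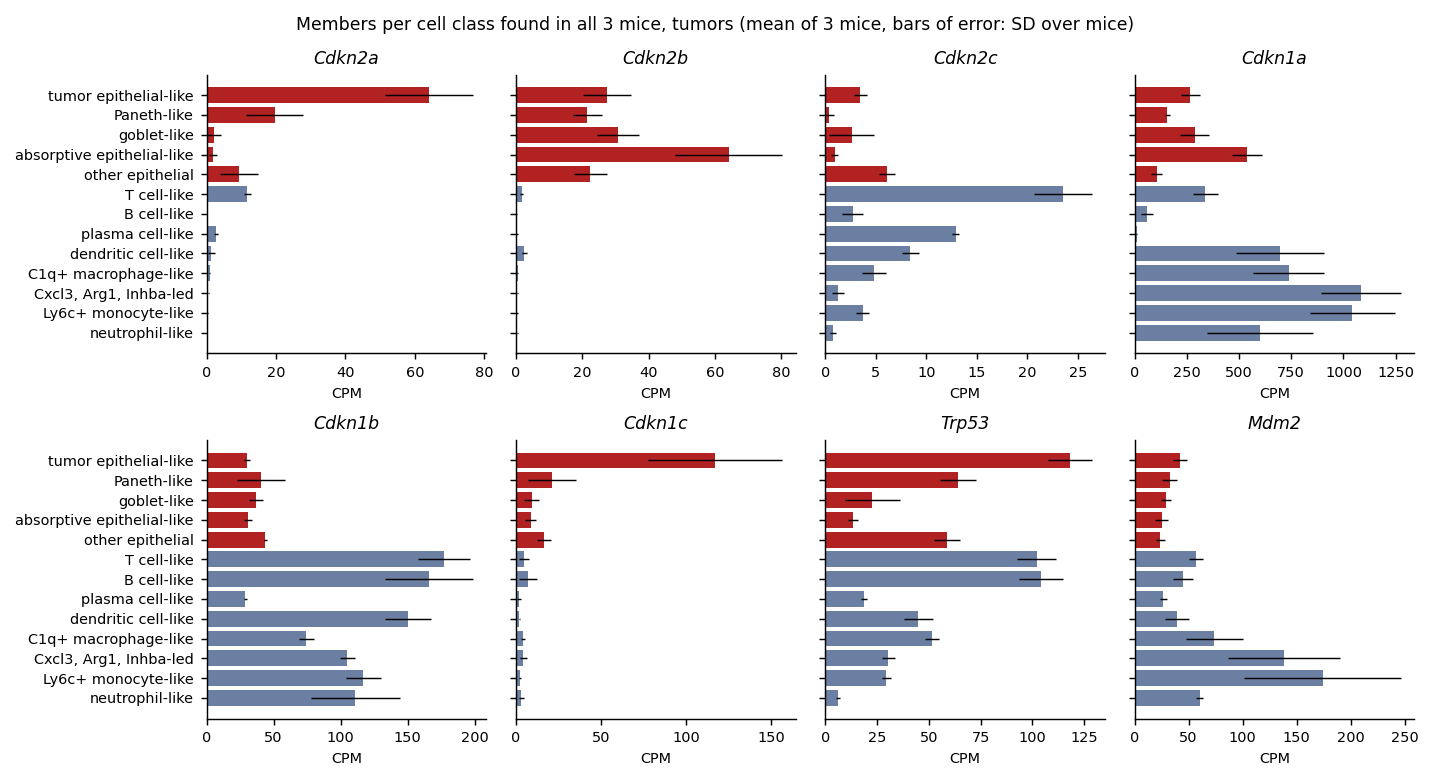
Level of each member (CPM of summed UMIs, linear axis) in each cell class found in the tumors of all 3 mice, bars giving the mean of 3 mice and error bars the SD over mice, epithelial classes in red and immune classes in blue. Cdkn2a (64.1 CPM) and Cdkn1c (117 CPM) were highest in tumor epithelial-like cells, Cdkn2b in absorptive cells, and Cdkn1a in the class led by Cxcl3, Arg1 and Inhba and in Ly6c+ monocyte-like cells.

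Cdkn1a was highest in myeloid classes of the tumors and, among classes with a level in all 3 mucosa samples, in absorptive cells of the mucosa. In tumors it stood at 1084 ± 192 CPM in a macrophage-like class led by Cxcl3, Arg1 and Inhba and at 1042 ± 203 CPM in Ly6c+ monocyte-like cells, which did not differ beyond their spread, at 537 ± 71.9 CPM in absorptive cells and at 267 ± 44.7 CPM in tumor epithelial-like cells. The lowest was 10.1 ± 3.39 CPM in plasma cell-like cells. In mucosa Cdkn1a was at 623 ± 95.7 CPM in absorptive and 426 ± 87.1 CPM in goblet-like cells. Mucosal myeloid cells were few, with Cdkn1a at 475 CPM in 28 Ly6c+ monocyte-like cells of 1 library and at 185 and 188 CPM in the C1q+ macrophage-like cells of 2 libraries. Cdkn1b was highest in T, B and dendritic cell-like cells of tumors, at 177 ± 19.1, 166 ± 32.6 and 150 ± 17.0 CPM, and was at 30.2 ± 2.58 CPM in tumor epithelial-like cells. In tumors Cdkn1c was at 117 ± 39.5 CPM in tumor epithelial-like cells and no more than 21.3 ± 13.9 CPM in any other of these classes. The 93 fibroblast-like cells of 2 tumors were at 52.1 ± 38.3 CPM (SD, n = 2). The enteroendocrine-like class of the mucosa was higher, at 650 ± 295 CPM. Trp53 was at 118 ± 10.6 CPM in tumor epithelial-like, 104 ± 10.7 CPM in B cell-like and 102 ± 9.50 CPM in T cell-like cells, and at 6.24 ± 1.00 CPM in neutrophil-like cells. Mdm2 was highest in Ly6c+ monocyte-like cells, at 174 ± 72.7 CPM, with the Cxcl3, Arg1 and Inhba-led class at 138 ± 51.9 CPM, a difference within their spread.

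The genes whose pattern over 158 class-by-library sums was most like a member's were named by Pearson's r of log2 levels, as a description in which sums share libraries and depth. They were Ptprz1 for Cdkn2a (0.77), 2200002D01Rik for Cdkn2b (0.95), Lockd for Cdkn2c (0.69), Plin2 for Cdkn1a (0.86), Syf2 for Cdkn1b (0.90), Avil for Cdkn1c (0.82), Hnrnpa1 for Trp53 (0.95) and Mef2a for Mdm2 (0.85), out of 9839 genes.

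Tumor epithelial-like cells fell into a larger and a smaller cluster, whose mean levels were proportionally furthest apart in Cdkn1c and Cdkn2c. Over 10 tumors Cdkn1c averaged 58.0 ± 30.4 CPM in the larger cluster (9965 cells) and 295 ± 116 CPM in the smaller one (2876 cells). Cdkn2c averaged 4.21 ± 1.25 and 0.937 ± 0.428 CPM, and Cdkn2a, whose ranges overlapped, 57.3 ± 18.8 and 86.5 ± 45.6 CPM. The ranges of the other 5 members also overlapped, with Cdkn1a at 265 ± 55.2 and 250 ± 60.7 CPM and Trp53 at 115 ± 8.35 and 132 ± 13.9 CPM. No test was made between clusters, which were drawn from the same cells.

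Summed over all cells, the tumor and mucosa differ in make-up: neutrophil-like cells made 22.8 to 38.0% of tumor cells and 0.0610 to 0.511% of mucosal cells. Of 17445 genes tested, 69.8% differed, 35.9% higher and 33.9% lower, and of the members 4 were higher and 2 lower. Cdkn1a, which did not pass the test in epithelium, ranged from 322 to 591 CPM (median 392) in tumors and was at 102, 305 and 246 CPM in mucosa, with no overlap and a log2 fold change of 0.94 (SE 0.29, edgeR adjusted p = 0.0108). Mdm2 ranged from 34.8 to 83.7 CPM (median 60.6) in tumors against 21.1, 19.9 and 18.7 CPM, with no overlap and a log2 fold change of 1.57 (edgeR adjusted p = 0.000180). Trp53 overlapped between tissues and was at -0.01 (edgeR adjusted p = 0.920), as was Cdkn1b at -0.04 (edgeR adjusted p = 0.754). Cdkn2b was lower (-1.14, edgeR adjusted p = 0.0144) and Cdkn1c higher (1.48, edgeR adjusted p = 0.0122), and both were lost without mucosa 2 (0.0919 and 0.0653) or mucosa 3 (0.109 and 0.0659). Of the 130 Cdkn2a UMIs in all mucosal cells, 105 lay in T cell-like cells.

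Within the T cell-like class Cdkn1a was higher in tumors. In T cell-like cells it ranged from 266 to 443 CPM (median 316) in tumors and was at 21.5, 31.1 and 20.1 CPM in mucosa 1, 2 and 3. Every tumor exceeded every mucosa, with a log2 fold change of 3.94 (SE 0.23, edgeR adjusted p = 4.62e-10) where 41.8% of 10005 genes differed, 21.3% higher and 20.4% lower, and 3 of 7 members were higher. Mdm2 rose by 0.60 (edgeR adjusted p = 0.00368) and Trp53 by 0.43 on the log2 scale (edgeR adjusted p = 0.0172), the latter lost without mucosa 1 (0.141) or mucosa 3 (0.102). In all, Trp53 was called in 5 of 8 fits of this class, with log2 fold changes of 0.26 to 0.63. Different clusters hold most of the class: the cluster led by Icos, Tnfrsf4 and Ctla4 has 4986 tumor and 425 mucosal cells, and the one led by Gzma, Ccl5 and Cd160 has 497 tumor and 4170 mucosal cells. Within the first, Cdkn1a was at 348 ± 60.2 CPM (SD, n = 10) in tumors and 38.5 ± 32.2 CPM (SD, n = 3) in mucosa, and within the second at 141 ± 47.7 CPM (SD, n = 8) and 17.7 ± 9.61 CPM (SD, n = 3). The 6 neutrophil markers summed to 128 to 573 CPM in tumor and 1.10 to 4.61 CPM in mucosal T cell-like sums, with Csf3r and Cxcr2 at 0 in mucosa, the 6 C1q+ macrophage markers to 33.4 to 181 and 4.96 to 12.2 CPM, and the stress list to 4545 to 7184 and 2179 to 2367 CPM. The Arg1 and Inhba macrophage list overlapped between tissues (32.6 to 118 and 27.4 to 54.8 CPM), as did the Ly6c+ monocyte list (317 to 527 and 470 to 689 CPM). The 7 epithelial markers were at 53.6 to 191 CPM in tumors and 218 to 1944 CPM in mucosa. Their part was not tested.

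**Figure D3:**
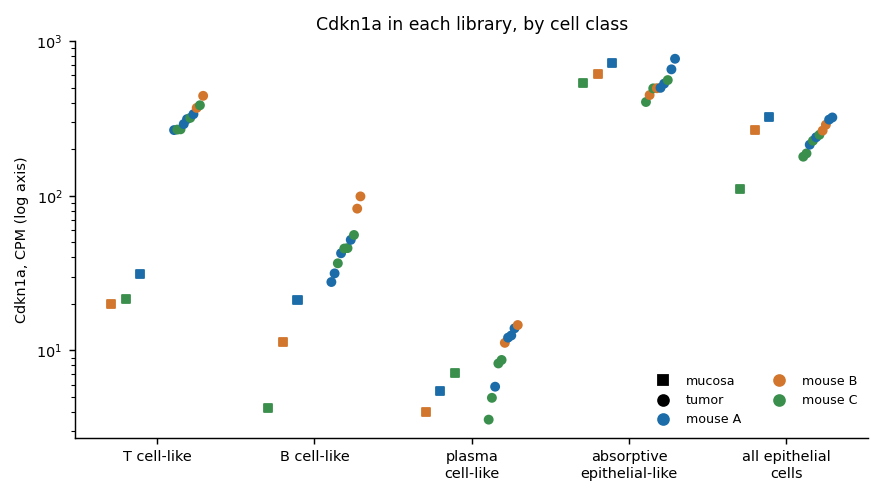
Cdkn1a level (CPM of summed UMIs, log axis) in each library, by cell class, squares for mucosa and circles for tumors, coloured by mouse. T cell-like cells lay between 266 and 443 CPM in tumors and 20.1 and 31.1 CPM in mucosa, B cell-like cells were also apart, and plasma cell-like cells, absorptive cells and all epithelial cells overlapped.

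In B cell-like cells Cdkn1a ranged from 27.7 to 99.1 CPM (median 45.8) in tumors and was at 4.23, 21.1 and 11.4 CPM in mucosa 1, 2 and 3. The groups did not overlap, and the log2 fold change of 2.41 (SE 0.39, edgeR adjusted p = 4.65e-05) made it the only one of 4 tested members called, where 40.7% of 5846 genes differed, 20.0% higher and 20.7% lower. Counts of Cdkn1a were few, 7, 13 and 9 UMIs in mucosa 1, 2 and 3 and from 7 in tumor 6 to 301 in tumor 10. Neutrophil markers summed to 213 to 1109 CPM in the tumor B cell-like sums and 0 to 8.86 CPM in mucosa, and the stress list to 4382 to 9824 and 1596 to 2080 CPM. The Arg1 and Inhba macrophage list was at 7.01 to 134 CPM in tumors and 1.21 to 4.86 CPM in mucosa, while the Ly6c+ monocyte list (494 to 1758 and 1000 to 3987 CPM) and the C1q+ macrophage list (1279 to 3036 and 1036 to 1808 CPM) overlapped. Their part was not tested. Plasma cell-like cells of the same tumors, with neutrophil markers at 35.2 to 223 CPM, held Cdkn1a at 3.57 to 14.6 CPM (median 9.96) against 3.98 to 7.16 CPM in mucosa. That difference did not pass (log2 fold change 1.31, edgeR adjusted p = 0.0830), and 0 of 7 members were called by edgeR or by DESeq2 there, where 15.8% of 9248 genes differed, 7.57% higher and 8.24% lower. Unadjusted p was 0.0173 for Cdkn1a and 0.0245 for Cdkn2c, and at or above 0.0695 for the other members.

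In absorptive cells 1 of 6 tested members was higher and 1 lower. Cdkn2a and Cdkn2c did not enter this fit. The 2 alternative fits that kept them called Cdkn2a higher (log2 fold change 4.93 to 5.50) and Cdkn2c lower (-2.38 to -2.34). Counts of Cdkn2a were few, 27 UMIs in 1060 tumor and 2 in 4642 mucosal absorptive cells. Cdkn1b ranged from 20.9 to 42.6 CPM (median 31.5) in 9 tumors and 45.2 to 55.9 CPM in mucosa, without overlap, and fell by 0.62 on the log2 scale (edgeR adjusted p = 0.0261). Mdm2 was higher by 0.79 (edgeR adjusted p = 0.0110), where 38.8% of 8658 genes differed, 20.6% higher and 18.2% lower. Both calls were lost without 1 mucosa library, Mdm2 without mucosa 1 (edgeR adjusted p = 0.0564) or mucosa 3 (0.050) and Cdkn1b without mucosa 2 (0.118) or mucosa 3 (0.101). Cdkn1a stood at -0.09 (edgeR adjusted p = 0.749) and Cdkn2b at -0.36 (edgeR adjusted p = 0.269). Different clusters held most of the class in each tissue, among them a cluster led by Cyp2c55 and Car1 (2454 mucosal and 11 tumor cells) and a cluster led by Clca4b and Saa1 (530 mucosal and 1025 tumor cells). Within the latter, Cdkn1a was at 589 ± 224 CPM (SD, n = 10) in tumors and 1183 ± 119 CPM (SD, n = 2) in mucosa, unlike the class as a whole. The stress list summed to 2685 to 4431 CPM in tumor and 1751 to 1856 CPM in mucosal absorptive sums, and its part was not tested.

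Cdkn2a was also counted in T cell-like cells, where it did not differ between tissues by the test. It ranged from 4.76 to 19.7 CPM (median 11.8) in tumors and was at 11.8, 10.0 and 5.69 CPM in mucosa 1, 2 and 3, overlapping (log2 fold change 0.57, edgeR adjusted p = 0.133). There were 700 Cdkn2a UMIs per 1000 UMIs of the keratin Krt8 in T cell-like cells of tumors, against 252 in plasma cell-like, 31.0 in tumor epithelial-like and 14.1 in neutrophil-like ones. In mucosa there were 51.5 in T cell-like, 60.6 in plasma cell-like and 21.3 in B cell-like cells, against 0.00429 in absorptive and 0 in goblet-like cells. The order depends on the marker. Against Epcam, tumor T cell-like cells held 311 Cdkn2a and 536 Epcam UMIs, plasma cell-like cells 146 and 8844, and tumor epithelial-like cells 13431 and 497488. A cycling T cell-like cluster led by Hist1h2ap and Hist1h1b, but also by the epithelial Tff1, held 94 of the 311 tumor UMIs in 167 of 5650 cells and 39 of the 105 mucosal UMIs in 68 of 4663 cells. Pooled over libraries, the share of T cell-like cells with a Cdkn2a UMI was 4.41% in tumors at a median depth of 3579 UMIs and 1.74% in mucosa at 1843 UMIs, and the pooled shares at unequal depth give no comparison of the tissues. It was 0.120% in neutrophil-like cells of tumors, at a median depth of 2593.5 UMIs.

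Last, the members were set against the cycling genes within tumor epithelial-like cells. In each tumor the 33.3% of cells with the highest share of UMIs in 92 S and G2/M genes were summed and compared with the 33.3% with the lowest, 4277 cells each, with the tumor as a block. Of 11894 genes, 70.2% differed, 33.6% higher and 36.6% lower, and of the 8 members 3 were higher and 4 lower. The cycling-high cells had median depths of 11030 to 20395 UMIs, the cycling-low cells 6436 to 12604, and 88.8 to 99.0% against 59.0 to 87.1% of them came from the larger cluster. The score is a continuum, and per tumor 56 to 686 cells lay within 0.1 percentage points of the upper limit and 273 to 1069 within the same distance of the lower limit. The stress list summed to 1943 to 5238 CPM in cycling-high and 3415 to 6211 CPM in cycling-low cells, and its part was not tested.

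Cdkn2a ranged from 29.2 to 65.7 CPM (median 51.8) in cycling-high and from 31.0 to 133 CPM (median 75.4) in cycling-low cells. It was lower in the cycling-high cells of 7 of 10 tumors, with overlapping ranges, and the log2 fold change was -0.49 (SE 0.13, edgeR adjusted p = 0.00284). CPM is a share of UMIs: the deeper cycling-high cells held 4375 Cdkn2a UMIs and the equally many cycling-low cells 4135. Over 24 fits, the splits by cluster included, the log2 fold change lay between -0.73 and -0.23 and was called in 22. By the S list alone it was -0.73 (edgeR adjusted p = 1.16e-05) and by the G2/M list alone -0.23 (edgeR adjusted p = 0.118), and over all epithelial cells of the tumors it was -0.33 (edgeR adjusted p = 0.0804). Cdkn2b was lower in 10 of 10 tumors, with medians of 14.0 and 35.6 CPM and a log2 fold change of -1.50 (edgeR adjusted p = 3.64e-10). Cdkn2c went the other way, higher in 10 of 10 tumors, with medians of 7.61 and 0.529 CPM and a log2 fold change of 3.60 (edgeR adjusted p = 9.86e-11). It rested on few counts, 607 UMIs in all cycling-high and 30 in all cycling-low cells.

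**Figure D4:**
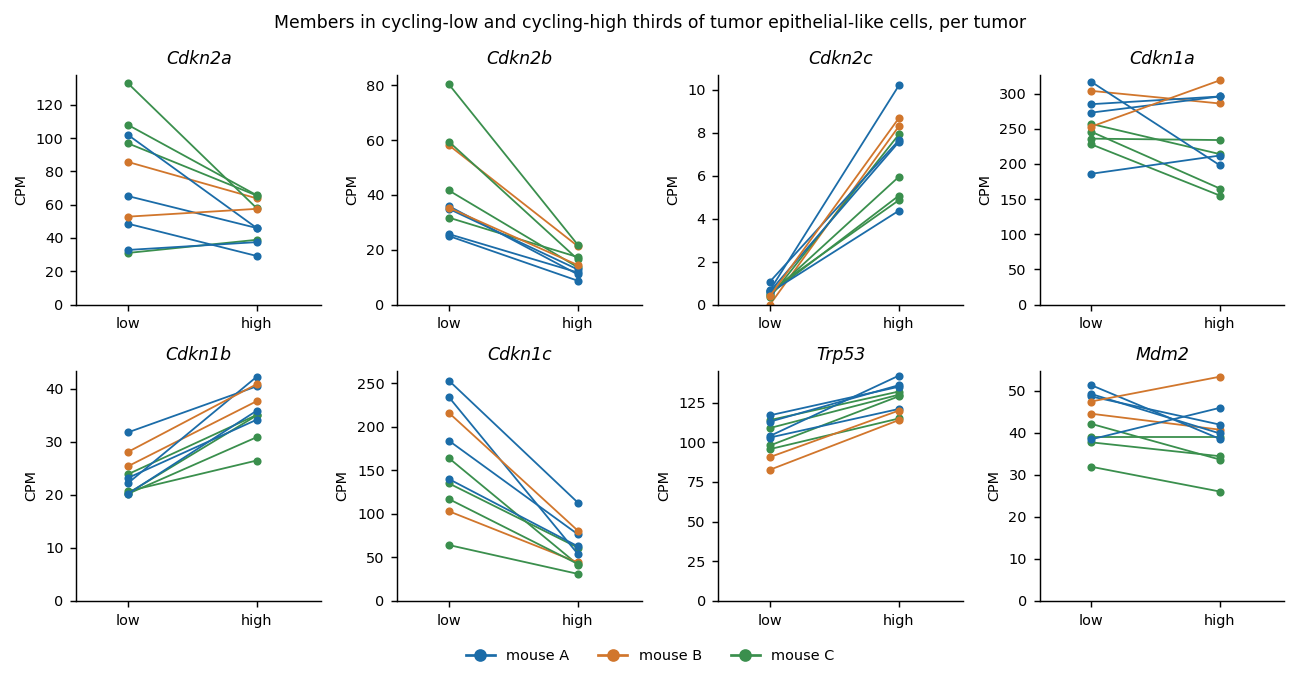
Level of each member (CPM of summed UMIs, linear axis) in cycling-low and cycling-high tumor epithelial-like cells, a line per tumor coloured by mouse. Cdkn2c, Cdkn1b and Trp53 were higher in the cycling-high cells of 10 of 10 tumors, Cdkn2b and Cdkn1c were lower in 10 of 10, and Cdkn2a was lower in 7 of 10.

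Cdkn1b was higher in cycling-high cells of 10 of 10 tumors (medians 35.5 and 22.7 CPM, log2 fold change 0.60, edgeR adjusted p = 2.84e-07), and so was Trp53 (129 and 103 CPM, 0.31, edgeR adjusted p = 2.07e-06). Each was called in 23 of 24 fits, at 0.20 to 0.66 for Cdkn1b and 0.15 to 0.58 for Trp53. Cdkn1c was lower in 10 of 10 (57.7 and 152 CPM, -1.40, edgeR adjusted p = 1.17e-09), but within the larger cluster alone it was at -0.10 (edgeR adjusted p = 0.420). Cdkn1a stood at -0.15 (edgeR adjusted p = 0.102), at -0.36 by the S list alone (edgeR adjusted p = 0.000293) and at 0.30 within the smaller cluster (edgeR adjusted p = 0.0658), and Mdm2 at -0.14 (edgeR adjusted p = 0.0420), a call kept in 8 of 24 fits, the reported one included. In UMIs, cycling-high and cycling-low cells held 19872 and 13700 of Cdkn1a and 3376 and 2286 of Mdm2. Of the E2F genes, E2f1 was higher by 4.28 and E2f8 by 4.87 on the log2 scale. In the CDK4/6 and RB list 13 of 16 genes were higher and 2 lower, and 7 of 8 of the CDK2 and CDK1 list outside the score were higher. As the cells were split by S and G2/M genes, a rise of genes expressed together with these follows from the split. It is no separate result for these lists, for the members that rose, Cdkn2c among them, or for the regulators named below. Of 25 p53 targets, 11 were higher and 7 lower, with a median of 0.09 against -0.03 over all genes. Regulators of the Cdkn2a locus were higher in 9 of 28 and lower in 14 (median -0.17), against 33.6% and 36.6% of all genes. Uhrf1 and Dnmt1, which copy DNA methylation at replication, were higher by 5.19 and 2.67 on the log2 scale, and Suz12 by 0.96. Tet2, which oxidises methylcytosine, fell by 0.88, as did Tet3 by 0.45 and the DNA methyltransferase gene Dnmt3a by 0.64.

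A related question was put per cell. With every cell thinned to 2000 UMIs, 12401 cells remained and 440 shallower ones were left out, and 1076 cells held a Cdkn2a UMI, 4.47 to 11.7% per tumor (before thinning 31.4% of 12841 cells). The cycling genes took 0.433% of UMIs in cells with a Cdkn2a UMI and 0.396% in cells without, a difference of 0.0372 percentage points (SD 0.0781, n = 10), higher in 7 of 10 tumors (two-sided exact sign-flip permutation test, p = 0.168, where 0.00195 is the smallest possible). The mean difference was 0.0764 over the tumors of mouse A and 0.0908 over those of mouse B, but -0.0287 for mouse C. Without thinning it was 0.128, higher in 10 of 10 tumors (exact permutation p = 0.00195), a comparison in which deeper cells are more often positive. By the same measure, cells with a Cdkn2b UMI had a lower cycling share by 0.134 percentage points in 10 of 10 tumors, and cells with a Cdkn2c UMI a higher one by 0.470 in 9 of 10. Only 65 thinned cells held a Cdkn2c UMI, 0.183 to 0.957% per tumor.

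**Figure D5:**
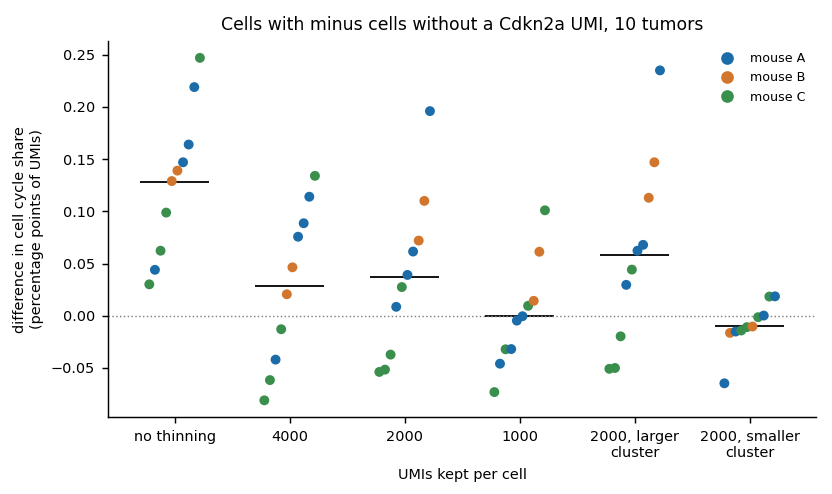
Difference in the share of UMIs in the 92 cycling genes (percentage points) between tumor epithelial-like cells with and without a Cdkn2a UMI, a point per tumor coloured by mouse and a line at the mean, by the UMIs kept per cell. The mean was 0.128 without thinning, 0.0282 at 4000, 0.0372 at 2000 and -0.000201 at 1000 UMIs per cell.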

How the data were processed

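Single cells of 10 tumors and 3 mucosa samples were measured with the 10x Genomics 3′ kit. The authors ran Cell Ranger (6.0.0 and mm10 by the submitters' processing notes) and deposited raw UMI counts per gene and barcode. Barcodes with under 500 UMIs, under 200 genes or 25% or more mitochondrial UMIs were removed here, as were simulated-doublet calls at 0.8% per 1000 barcodes. Cells were clustered with leidenalg 0.10.2 on 2000 variable genes and 30 principal components, with the members held out. Classes of at least 20 cells per library gave levels, and at least 50 gave fits. UMIs were summed per library and tested with edgeR 4.0.16 (quasi-likelihood, TMM, R 4.3.3), adjusted by Benjamini-Hochberg over all genes tested, at 0.05. Members and lists were chosen with earlier results of these data known, and genes named from a list were among the 3 past the threshold with the lowest adjusted p in each direction. DESeq2 1.42.0, other filters and left-out libraries were alternatives, and the fit was tested on simulated data.

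Tumors and mucosa pair by the animal codes in the labels. Deviations from group means correlated between a mouse's tumors and mucosa at r = 0.161 for mouse A, 0.0942 for mouse B and 0.238 for mouse C, across 15602 genes, which are not independent. RefSeq promoter windows matched 7 of the 8 members.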

Additional observations from a re-analysis of the deposited data

Results flagged for a closer look

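Of 45 groups of 4 to 10 samples examined, 2 had a sample standing apart from the others by Dixon's criterion, and chance gives about 1 in 20. Trp53 in the epithelial cells of colon tumor 10 was at 71.8 CPM, while the next tumor was at 93.2 and the highest at 116 CPM. Cdkn1c in all cells of colon tumor 5 was at 95.7 CPM, while the next tumor was at 55.1 and the lowest at 16.3 CPM.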

How the results depend on the processing

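The mouse as a replicate block changed no call of a member between tumor and mucosa, and leaving the tumor block out of the cycling comparison took Mdm2 to -0.13 (edgeR adjusted p = 0.259). In epithelium the log2 fold change of Cdkn1a turned to 0.11 without mucosa 2 (leave-one-out range -0.53 to 0.11), 0.05 without mouse A, 0.08 with doublets kept and 0.09 with library size only, and Cdkn2b to 0.08 without mouse A. Over all cells Trp53 was 0.00 by DESeq2 and -0.10 to 0.12 leaving out each mucosa. With library size only, chosen after seeing the data, as were the splits by tumor cluster, the share of calls that were higher fell from 51.1% to 34.9% in T cell-like and from 47.9% to 6.95% in plasma cell-like cells, where T cell-like Cdkn1b turned to -0.05, plasma cell-like Cdkn2c to -0.01 and Mdm2 to -0.31, 3236 genes were called in place of 1462, and 1 member in place of 0. Leaving out a mucosa gave 885 to 993 genes and 0 to 1 members in plasma cell-like cells, with Trp53 between -0.28 and 0.19 and Cdkn2a between -0.54 and 0.37. In absorptive cells it gave 2215 to 2911 genes in place of 3358 and 0 to 1 members in place of 2, with Cdkn1a between -0.25 and 0.06, and DESeq2 and no filter each gave 4 members. In B cell-like cells DESeq2 called 3 and no filter 5 members in place of 1. Besides Cdkn1a, Cdkn2c was lower (-1.86) and Cdkn1c higher (2.33 to 2.35) in 2 of 2 fits that kept them. Cdkn2a (-3.30 to -2.64) and Cdkn2b (-2.67 to -2.09) were called lower in 1 of 2. In the cycling comparison Cdkn1a turned to 0.03 by the G2/M list and 0.30 in the smaller cluster and Mdm2 to 0.11 there, where 1651 genes and 3 members were called in place of 8345 and 7, and thinned cells gave 4095 genes. The per-cell Cdkn2a difference was 0.128 without thinning, -0.000201 at 1000 UMIs, 0.0578 in the larger cluster (higher in 7 of 10 tumors, exact permutation p = 0.0723) and -0.00956 in the smaller cluster, and 0.0195 to 0.0473 leaving out each tumor. The causes were not tested, beyond the fewer cells or UMIs that thinning and the smaller cluster leave.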
